A study of Homo sapiens with 12 samples.

Results

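Antisense transcripts are RNAs made from the strand opposite an annotated gene, and the 233 that were well detected in HEK293 cells are described here in cells with SUPT4H1 siRNA and in cells with scrambled siRNA. They are the rows whose biotype in the deposited table is antisense and whose counts sum to 500 or more over all 12 libraries, of 5513 antisense rows and 57704 endogenous rows. A further 4 rows at or above that sum (ZFAS1, SNHG12, SNHG7 and SNHG10), which are hosts of small nucleolar RNAs, were left out by symbol. The members were chosen by the total count, so their levels are a description. The difference between the siRNAs was not itself used in the choice. However, the scrambled siRNA libraries were mostly deeper and weigh more in the total. A transcript higher with scrambled siRNA therefore reached the limit more easily than one higher with SUPT4H1 siRNA. The 3 members nearest the limit were TCEB3-AS1, AC009948.1 and AC009831.1, with 506, 502 and 501 counts in all. The 3 rows just under it were ZEB1-AS1, DDX11-AS1 and AL031963.3, with 499, 496 and 494 counts.

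All cells were HEK293, an established human embryonic kidney line, stably carrying the intron-DARP-EGFP reporter, in which a DARP-EGFP gene is joined to an endogenous intronic sequence. They received either pooled siRNAs against SUPT4H1 or scrambled siRNAs at 100 nM and were lysed 72 hours later. There were 6 libraries with each siRNA, and each library came from its own transfection, all begun from 1 culture. The spread behind the p-values is therefore that among transfections. Whether the reporter line is a single clone is not given in the sources used here. RNA 3′ ends were read with the QuantSeq forward kit, which primes on poly(A) tails, so reads are meant to come from polyadenylated ends. The counts are per gene, and whether reads of a member lie at such an end was not checked.

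SUPT4H1 encodes SPT4, which with SPT5 forms DSIF, an elongation factor that travels with RNA polymerase II. Many human promoters start transcription in both directions, and the RNA made away from the gene is often short-lived, because early poly(A) sites and the nuclear exosome end it soon. Others of the antisense class are stable, spliced and polyadenylated long noncoding RNAs, such as TUG1, or silence neighbouring genes in cis, as KCNQ1OT1 does at an imprinted locus.

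SUPT4H1 itself was between 17.9 and 22.8 CPM (counts per 1000000 endogenous counts, TMM-scaled) with SUPT4H1 siRNA, against 174.9 to 198.7 CPM with scrambled siRNA. As each read is taken to stand for a 3′ end, CPM here are not divided by length. Endogenous counts summed to between 6591194 and 11366971 per library with SUPT4H1 siRNA and to between 7337033 and 20269171 with scrambled siRNA. The RNA integrity number lay between 9.6 and 10 in all libraries. SUPT4H1 siRNA replicate 6 stood apart from the rest of its group: a chi-square per degree of freedom of at least 19.4 separated it from each of the other 5, against at most 8.28 among those 5 and 6.12 to 29 between scrambled siRNA libraries. Of 5 genes taken as HEK293 markers, NEFL (934.0 CPM with SUPT4H1 siRNA, 1434 CPM with scrambled siRNA), LHX1 and VIM were abundant, while PAX2 and NEFM were near 1 CPM. Of 4 leukocyte, 2 endothelial and 2 hepatocyte markers none averaged above 0.697 CPM in either group, and PTPRC and CDH5 were at 0 in all 12 libraries. Of the fibroblast markers, COL1A1 averaged 4.57 CPM with SUPT4H1 siRNA and 6.37 CPM with scrambled siRNA, and DCN at most 0.358 CPM in either group. TSPOAP1-AS1, the antisense gene opposite SUPT4H1, was not among the members and was not analysed here.

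All 233 members passed the filter on low counts, which left 13811 endogenous rows to be tested. The lowest count of any member in any library was 5, and in each group every member had a median of at least 10 counts. Together the members took 0.284% ± 0.0087 of endogenous counts with SUPT4H1 siRNA and 0.278% ± 0.0027 with scrambled siRNA (SD, n = 6 each). The 10 most counted members held 26.7% of all counts of the group. They lay on 23 chromosomes, with 24 each on chromosomes 1 and 7. In GENCODE release 29 (GRCh38), where 232 were found by identifier, 219 were still typed as antisense and 13 had another type, TUG1 among them. The exons of a member spanned a median of 1918.5 bases, and 54 members had a single exon block.

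Relative to the rest of the transcriptome, 48 antisense transcripts rose and 54 fell with SUPT4H1 siRNA, and 131 did not pass the threshold (edgeR quasi-likelihood test over all tested rows, Benjamini-Hochberg adjusted p under 0.05). That was 20.6% higher and 23.2% lower, against 20% and 20.2% of all rows tested (40.2% in either direction), so the shares were near the background in both directions. Without SUPT4H1 siRNA replicate 6 the counts were 46 higher and 50 lower. The median log2 fold change was −0.04 over the members and −0.00 over all rows tested. Differences of at least 2-fold were found among called members in 5 that rose and 9 that fell. For 44 members no library of one group fell within the range of the other, or 18.9%, against 20.4% of all rows tested.

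Other noncoding classes gave similar or smaller shares. Of 378 lincRNA rows tested, 52 rose and 88 fell, with a median log2 fold change of −0.07. Among 301 antisense rows under the total of 500 that were tested, 40 rose and 33 fell. Rows of any class with a total in the range of the members numbered 9942, of which 21.5% rose and 20.6% fell. The difference between the members and these classes was not tested.

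**Figure D1:**
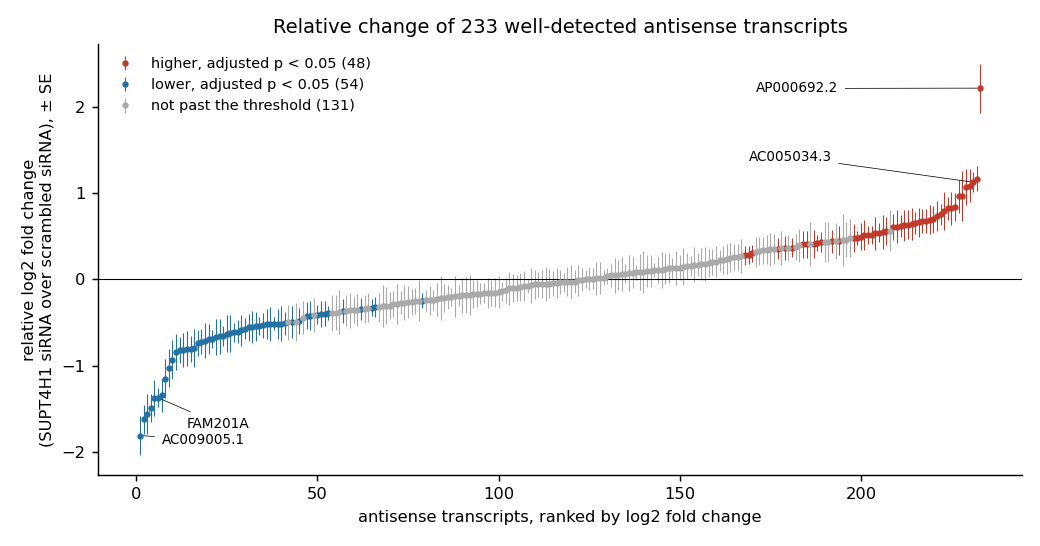
Relative log2 fold change (SUPT4H1 siRNA over scrambled siRNA, y axis) of the 233 antisense transcripts, ranked (x axis); points are edgeR estimates and bars the standard error. The 48 that rose and the 54 that fell lie at the ends, and AP000692.2 at 2.22 stands above the others.

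The most counted member was NNT-AS1, which starts head to head with NNT, the gene of a mitochondrial transhydrogenase. NNT-AS1 ran from 76.6 through a median of 90.2 to 96.7 CPM with SUPT4H1 siRNA, against 111.6, 125.7 and 143.1 CPM with scrambled siRNA. The groups did not overlap, and NNT-AS1 fell by 0.51 ± 0.08 on the log2 scale (SE, adjusted p = 2.59e-05). NNT itself averaged 75.2 CPM with SUPT4H1 siRNA and 72.0 CPM with scrambled siRNA and did not pass the test (adjusted p = 0.598).

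ZSCAN16-AS1 lies opposite ZSCAN16, a zinc finger gene. It was at 53.7, 78.0 and 87.6 CPM (lowest, median and highest) with SUPT4H1 siRNA, against 109.0, 114.9 and 142.3 CPM with scrambled siRNA, and fell by 0.69 ± 0.10 (log2, adjusted p = 2.01e-05). All 6 SUPT4H1 siRNA libraries lay below all 6 scrambled siRNA libraries. ZSCAN16 was far less counted than its antisense partner and moved the other way, with 7.90 CPM with SUPT4H1 siRNA and 5.51 CPM with scrambled siRNA (log2 fold change 0.53, adjusted p = 0.0178).

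HOXA11-AS, which is read against the homeobox gene HOXA11, was the most counted member that rose. Its lowest, median and highest values were 109.8, 119.7 and 138.3 CPM with SUPT4H1 siRNA, against 75.2, 89.2 and 96.4 CPM with scrambled siRNA. The groups were apart, and the log2 fold change was 0.48 ± 0.08 (adjusted p = 8.19e-05).

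TUG1, a long noncoding RNA with described roles in gene regulation and development, starts 947 bases from MORC2 on the other strand. It was between 52.5 and 84.9 CPM with SUPT4H1 siRNA (median 75.7), against 46.0 to 70.7 CPM with scrambled siRNA (median 55.0). TUG1 rose by 0.36 ± 0.12 (log2, adjusted p = 0.0209), with overlapping groups, and the call was lost without SUPT4H1 siRNA replicate 3 (0.31, adjusted p = 0.0503) or scrambled siRNA replicate 1 (0.32, adjusted p = 0.0519). Over all alternatives the adjusted p of TUG1 lay between 0.000876 and 0.0519. MORC2 rose as well (0.44, adjusted p = 0.0154).

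FGD5-AS1 was at 54.8, 62.2 and 129.8 CPM with SUPT4H1 siRNA, against 31.8, 36.8 and 41.9 CPM with scrambled siRNA. SUPT4H1 siRNA replicate 6 gave the highest value, and the other 5 libraries of that group still lay above the scrambled siRNA group. The log2 fold change was 0.96 ± 0.19 with all libraries (adjusted p = 0.00119) and 0.72 without replicate 6 (adjusted p = 2.04e-07), with adjusted p up to 0.00616 over the alternatives. NR2C2, a nuclear receptor gene that starts head to head with FGD5-AS1, fell by 0.75 on the log2 scale to 15.1 CPM with SUPT4H1 siRNA, against 25.6 CPM with scrambled siRNA (adjusted p = 2.75e-05).

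Of the other 5 most counted members, TBX2-AS1 fell by 0.33 ± 0.10 (log2, adjusted p = 0.0114) and AL445524.1 by 0.39 ± 0.09 (log2, adjusted p = 0.00104). FLJ37453 (63.2 CPM with SUPT4H1 siRNA, 66.7 CPM with scrambled siRNA), OTUD6B-AS1 (64.9 and 61.2 CPM) and SLC16A1-AS1 (62.0 and 57.5 CPM) did not pass the threshold.

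**Figure D2:**
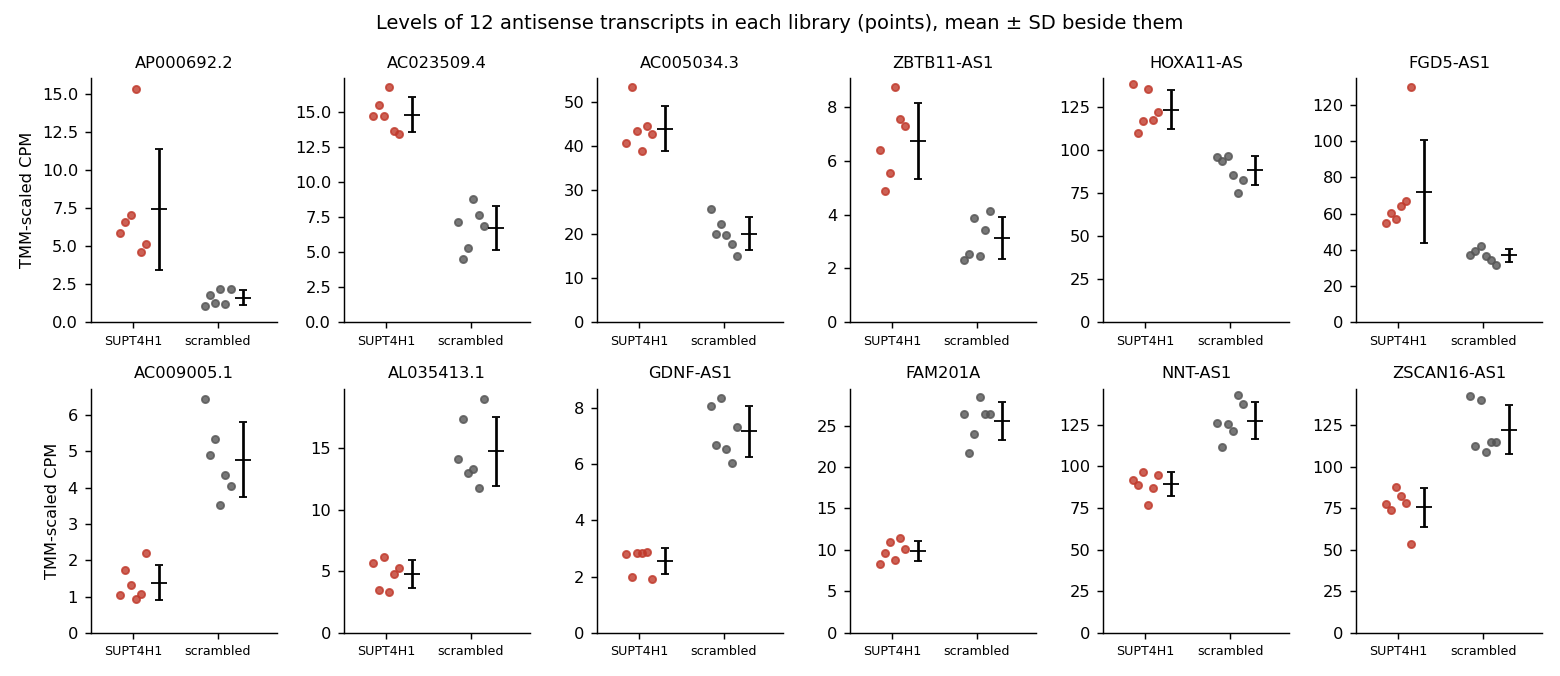
TMM-scaled CPM (y axis, from 0) of 12 antisense transcripts in each of the 6 SUPT4H1 siRNA libraries (red) and 6 scrambled siRNA libraries (grey), with the mean ± SD beside the points. The upper row holds members that rose and the lower row members that fell; in FGD5-AS1 and AP000692.2 1 SUPT4H1 siRNA library lies far above the rest, at 129.8 and 15.3 CPM.

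The largest rise was that of AP000692.2, a single-exon transcript of 879 bases at chr21:36319792-36320670 (GRCh38, minus strand) that starts inside MORC3 and runs away from it. It was at 4.59, 6.24 and 15.3 CPM with SUPT4H1 siRNA, against 1.09, 1.53 and 2.20 CPM with scrambled siRNA. The log2 fold change was 2.22 ± 0.28 (adjusted p = 5.26e-06), and 1.90 without replicate 4, the highest library (adjusted p = 2.41e-06; up to 3.33e-05 over the alternatives). MORC3, a zinc finger chromatin gene, was at 11.4 CPM with SUPT4H1 siRNA and 10.2 CPM with scrambled siRNA (adjusted p = 0.766).

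AC023509.4 (chr12:53500162-53500936, minus strand) starts head to head with TARBP2, whose product is a partner of Dicer, overlaps it by 15 bases and has a single exon. AC023509.4 had 13.4, 14.7 and 16.8 CPM with SUPT4H1 siRNA, against 4.52, 6.99 and 8.83 CPM with scrambled siRNA, with no overlap (log2 fold change 1.17 ± 0.15, adjusted p = 2.40e-06). TARBP2 fell by 0.33 (log2, adjusted p = 0.00494).

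AC005034.3 (chr2:75660462-75662208, plus strand), which lies within GCFC2 and shares no exon with it, was the most counted of the 5 that rose at least 2-fold. Its libraries ran from 39.0 through 43.1 to 53.5 CPM with SUPT4H1 siRNA, against 15.0, 19.98 and 25.8 CPM with scrambled siRNA. The rise was 1.13 ± 0.12 (log2, adjusted p = 2.03e-07), while GCFC2 was at 8.17 CPM with SUPT4H1 siRNA and 8.75 CPM with scrambled siRNA (adjusted p = 0.557).

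ZBTB11-AS1 averaged 6.74 ± 1.42 CPM with SUPT4H1 siRNA and 3.12 ± 0.79 CPM with scrambled siRNA (SD, n = 6 each), a log2 fold change of 1.09 in the edgeR fit. KCNQ1OT1 was at 12.4, 15.1 and 40.4 CPM with SUPT4H1 siRNA, against 5.57, 9.56 and 11.9 CPM with scrambled siRNA. Its highest library was again SUPT4H1 siRNA replicate 6. KCNQ1OT1 rose by 0.97 ± 0.29 on the log2 scale (adjusted p = 0.0185), or 0.61 without that library (adjusted p = 0.00262; up to 0.0591 over the alternatives).

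The other members among the 12 largest rises were AC092069.1 (1.07), DLX6-AS1 (0.84), AC009948.1 (0.82), AC018647.2 (0.82), RTCA-AS1 (0.79) and AL365181.3 (0.75), as log2 fold changes. Of those 12, 7 have a single exon block. None of the 12 largest falls does. Over all members with a single exon block, 17 of 54 rose and 8 fell (median log2 fold change 0.19), whereas 31 of 178 with more exons rose and 46 fell (median −0.10). Among all rows tested, 20% rose and 20.2% fell. The split by exon blocks was chosen after the values were seen and includes the 12 largest rises and falls. It was not tested.

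The largest fall was that of AC009005.1 (chr19:567210-572228, minus strand), which starts inside BSG, the gene of the membrane glycoprotein basigin. AC009005.1 had 0.94, 1.19 and 2.19 CPM with SUPT4H1 siRNA, against 3.53, 4.63 and 6.44 CPM with scrambled siRNA. The groups did not overlap, and the log2 fold change was −1.81 ± 0.23 (adjusted p = 2.90e-06). BSG stood at 158.9 CPM with SUPT4H1 siRNA and 156.2 CPM with scrambled siRNA (adjusted p = 0.856).

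AL035413.1 (chr1:19210501-19240704, plus strand) starts 225 bases from UBR4, a ubiquitin ligase gene, and runs opposite EMC1, a gene of a membrane insertion complex. It was at 3.36, 5.03 and 6.16 CPM with SUPT4H1 siRNA, against 11.8, 13.7 and 19.0 CPM with scrambled siRNA, with no overlap (log2 fold change −1.62 ± 0.17, adjusted p = 1.86e-07). EMC1 rose by 0.37 (log2, adjusted p = 0.000989), and UBR4 did not pass the threshold (0.51, adjusted p = 0.223).

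GDNF-AS1 lies opposite GDNF, which encodes a neurotrophic growth factor. GDNF-AS1 was at 1.90, 2.82 and 2.88 CPM with SUPT4H1 siRNA, against 6.04, 7.0 and 8.34 CPM with scrambled siRNA (log2 fold change −1.49 ± 0.17, adjusted p = 5.99e-07). All SUPT4H1 siRNA libraries were below all scrambled siRNA libraries.

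FAM201A (chr9:38620474-38624990, plus strand) had the smallest adjusted p of these falls. It was at 8.25, 9.86 and 11.4 CPM with SUPT4H1 siRNA, against 21.7, 26.4 and 28.4 CPM with scrambled siRNA, a log2 fold change of −1.37 ± 0.11 (adjusted p = 6.46e-09). ANKRD18A, which starts head to head with it, did not pass the threshold (0.18, adjusted p = 0.807).

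The remaining large falls were CECR5-AS1 (−1.56), CTB-178M22.2 (−1.37), AL731569.1 (−1.34), AF274858.1 (−1.15), MCF2L-AS1 (−1.03), AC006449.2 (−0.93), CCNT2-AS1 (−0.84) and AC091729.3 (−0.82), as log2 fold changes. CCNT2-AS1 and AC091729.3 fell along with the genes they start beside: CCNT2, which encodes a cyclin of the elongation kinase P-TEFb, by 0.54 (log2, adjusted p = 0.00162), and ZFAND2A, a stress-induced gene, by 1.38 (log2, adjusted p = 7.30e-09).

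Because the libraries were primed on poly(A) tails, annotated 3′ ends of some members that moved or were most counted are shown here. They were read from GENCODE release 29 transcripts (GRCh38), with the poly(A) signal (AATAAA or ATTAAA) in capitals. Only transcripts with such a signal near their end were shown, and members without one were left out. A signal in every line below therefore follows from the selection. Whether the reads counted here came from these ends was not checked.
ZSCAN16-AS1 (chr6:28121795-28121824, minus): tattgagtaaAATAAAaagttacaaaagat
HOXA11-AS (chr7:27189268-27189297, plus): atcggAATAAAgtgggtccaggcgcctctg
TUG1 (chr22:30978818-30978847, plus): gaaccAATAAAtacccttttttgcttaagt
FGD5-AS1 (chr3:14942784-14942813, minus): catggttgtaaAATAAActtttaaacctca
AP000692.2 (chr21:36319796-36319825, minus): aacgaAATAAAgacggaaattaatgtagac
AC023509.4 (chr12:53500164-53500193, minus): accacATTAAAaaaaaaaaaggttctaatg
AC005034.3 (chr2:75662177-75662206, plus): ccaggAATAAAccctattatcttttttata
GDNF-AS1 (chr5:37874856-37874885, plus): taaacAATAAAagtgcaaaaatcttgtggc
CECR5-AS1 (chr22:17165410-17165439, plus): cttttagcagtAATAAAgctgacattttta

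One of the letters AATAAA or ATTAAA stood within the last 50 bases of an annotated transcript in 172 of 232 members (74.1%), against 91.9% of 12027 tested protein_coding genes. Protein-coding genes have more annotated ends, with a median of 8.0 transcripts against 2.0 for the members. With genes of a single annotated transcript the shares were 60.9% of 87 members and 79.1% of 646 protein_coding genes. Members without either of these letters in that window included KCNQ1OT1, AC092069.1 and RTCA-AS1, which rose. They also included NNT-AS1, AC009005.1, AL035413.1, FAM201A, CTB-178M22.2 and AC091729.3, which fell, and FLJ37453 and TCEB3-AS1, which were not called.

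Promoters (250 bases before to 50 after the start, from RefSeq, GRCh38.p14) were at hand for 110 members. The letters GGGCGG, the core of a GC box, were found on either strand in 66 of them (60%), against 45.0% of all 35116 promoters in the same table, and TATAAA in 4.55% against 11.5%. CCAAT was in 39.1% against 34.6%, CCGGAAG in 8.18% against 10.3% and TGACGT in 14.5% against 7.98%. The 35116 promoters were not limited to genes detected here, and the window of a member can also hold the start of a gene on the other strand. The shares were not tested and do not mark a trait of antisense transcripts. The promoter window of RTCA-AS1, which starts 28 bases from RTCA on the other strand, is printed with its match to GGGCGG in capitals. That match begins at −128 from the start of RTCA-AS1. It lies farther away than the annotated start of RTCA, and so on the side of RTCA.
RTCA-AS1 (chr1:100266125-100266424, minus): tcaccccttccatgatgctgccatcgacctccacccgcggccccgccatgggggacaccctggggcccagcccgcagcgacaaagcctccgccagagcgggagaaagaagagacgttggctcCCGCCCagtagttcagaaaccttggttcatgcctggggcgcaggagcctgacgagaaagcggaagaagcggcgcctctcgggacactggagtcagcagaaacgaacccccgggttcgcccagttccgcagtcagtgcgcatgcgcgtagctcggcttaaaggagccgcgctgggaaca

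A list of antisense transcripts with a described role had 19 members here, of which 6 rose, 4 fell and 9 did not pass the threshold (median log2 fold change −0.14). For comparison, 20% of all rows tested rose and 20.2% fell, and whether the list differs from that was not tested. LINC-PINT, a p53-induced RNA, was at 4.38 ± 0.94 CPM with SUPT4H1 siRNA and 2.83 ± 0.57 CPM with scrambled siRNA (SD, n = 6 each; log2 fold change 0.61, adjusted p = 0.015 by edgeR). CDKN2B-AS1, the transcript also known as ANRIL that is linked to silencing of the CDKN2A and CDKN2B locus, was at 2.69 ± 1.00 CPM with SUPT4H1 siRNA and 4.03 ± 0.51 CPM with scrambled siRNA (SD, n = 6 each). Its fall of 0.63 (log2, adjusted p = 0.0226) was no longer called without SUPT4H1 siRNA replicate 1 or 3 or scrambled siRNA replicate 3 (adjusted p up to 0.0661). CDKN2A (173.1 CPM with SUPT4H1 siRNA, 173.5 CPM with scrambled siRNA) and CDKN2B (35.1 and 36.5 CPM) did not pass the threshold. TMPO-AS1 fell by 0.56 (log2, adjusted p = 0.0068) and LOXL1-AS1 by 0.82 (log2, adjusted p = 0.00258). BACE1-AS, HOTAIRM1, HAGLR, EMX2OS, DLEU2, GABPB1-AS1, THAP9-AS1, HOXA-AS2 and PXN-AS1 were the 9 that did not pass, with log2 fold changes between −0.33 and 0.22.

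The HOX clusters, arrays of homeobox genes that set position along the body axis, hold 9 of the antisense members, a grouping made after the values were seen. Of these, 4 rose (44.4%) and 0 fell by edgeR (median log2 fold change 0.22), against 20% and 20.2% of all rows tested. As the group was picked on its values, the difference from that share was not tested. Under all 18 alternatives, which use the same libraries, 3 of the 4 rises were called. DESeq2 gave 4 rises and limma-voom 3, with 0 falls by either tool and 0 at an unadjusted p under 0.05 by edgeR. Among 33 tested HOX protein_coding genes 10 rose and 11 fell (median −0.16). HOXA-AS3 was at 18.0 ± 3.20 CPM with SUPT4H1 siRNA and 11.4 ± 1.2 CPM with scrambled siRNA (SD, n = 6 each; log2 fold change 0.65, adjusted p = 0.000328 by edgeR). HOXA10-AS rose by 0.37 ± 0.11 (log2, adjusted p = 0.0112) and HOXA11-AS as given above. HOXB-AS3 stood at 0.36 ± 0.14 (log2, adjusted p = 0.0475), and its call held under only 7 of 18 alternatives (adjusted p up to 0.124). HOTAIR (0.17), HAGLR (0.22), HOXC-AS1 (0.00), HOTAIRM1 (−0.01) and HOXA-AS2 (−0.26) did not pass. The genes opposite moved in both directions: HOXA11 fell by 0.33 (log2, adjusted p = 0.00191), HOXA9 by 0.50 (log2, adjusted p = 1.31e-05) and HOXA4 by 0.22 (log2, adjusted p = 0.0302), and HOXA10 rose by 0.63 (log2, adjusted p = 4.23e-05).

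By position, 141 of 232 members started within 1000 bases of a gene start on the other strand, 85 of them overlapping that gene and 56 not. The overlapping ones held 19 that rose and 20 that fell (median log2 fold change −0.01), and the others 11 that rose and 16 that fell (−0.04). Of 41 members wholly within a gene on the other strand, 11 rose and 3 fell (−0.03). Of 12 that meet a gene tail to tail, 2 rose and 3 fell (−0.10), and of 27 with another kind of overlap 3 rose and 10 fell (−0.15). Of the remaining 11, 2 rose and 2 fell (0.04). Over all rows tested, 20% rose and 20.2% fell. Several classes are small, and they were compared by these counts only, so no effect of position was tested.

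For 133 members with a tested gene starting within 1000 bases, the log2 fold changes of the antisense transcript and of that gene had a Spearman's rho of 0.08 and a Pearson's r of 0.05 across genes, with both read from the same libraries. In 27 of them both passed the threshold, 15 in the same direction and 12 in opposite ones. In 36 the antisense transcript passed and the gene did not.

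**Figure D3:**
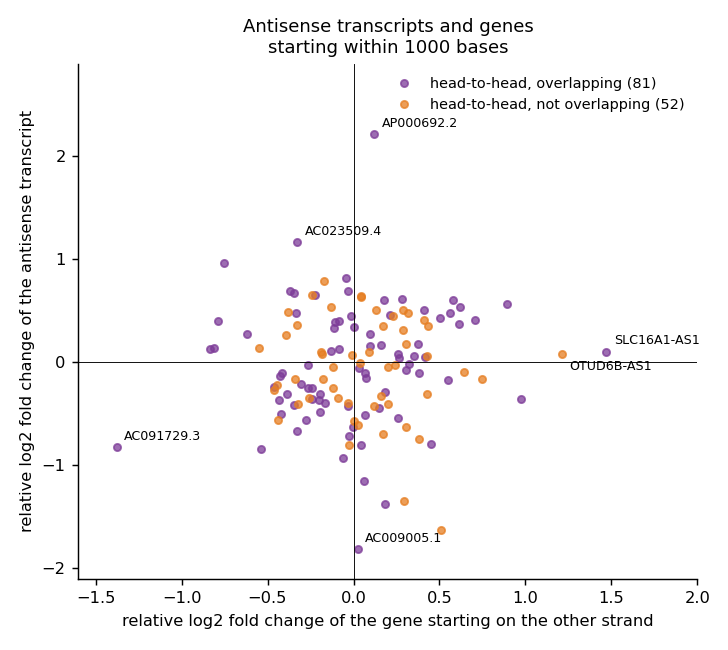
Relative log2 fold change (SUPT4H1 siRNA over scrambled siRNA) of antisense transcripts (y axis) against that of the gene starting within 1000 bases on the other strand (x axis), for 81 overlapping and 52 non-overlapping head-to-head pairs. Points fill all 4 quadrants; AP000692.2 and AC009005.1 lie near 0 on the x axis, and SLC16A1-AS1 and OTUD6B-AS1 near 0 on the y axis.

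The count of each antisense transcript was also set against that of the gene in its own symbol, as a log2 ratio within each library, which does not depend on library scaling. The ratio could be formed for 81 members among 152 antisense pairs (exact two-sided permutation test over libraries, Benjamini-Hochberg over the 152). It was higher with SUPT4H1 siRNA for 10 members and lower for 13, against 12.5% higher and 11.2% lower over all pairs. Without SUPT4H1 siRNA replicate 6 the counts were 10 and 14. The smallest p that 6 against 6 libraries can give is 0.0022, and at least 7 of the 152 pairs must reach it for any to be called.

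Some lower ratios came with a sense gene that rose. SLC16A1-AS1 starts head to head with SLC16A1, which encodes the monocarboxylate transporter MCT1. Its log2 ratio was −2.93 ± 0.20 with SUPT4H1 siRNA and −1.55 ± 0.14 with scrambled siRNA (SD, n = 6 each; difference −1.37, adjusted p = 0.0132, exact permutation test). SLC16A1 rose by 1.47 on the log2 scale to a mean of 469 CPM with SUPT4H1 siRNA, against 169 CPM with scrambled siRNA (adjusted p = 4.34e-12), while the antisense transcript did not pass the threshold (0.10, adjusted p = 0.336).

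BACE1-AS is read against BACE1, the gene of the beta-secretase that cuts the amyloid precursor protein. Its log2 ratio to BACE1 was −4.94 ± 0.37 with SUPT4H1 siRNA and −3.30 ± 0.30 with scrambled siRNA (SD, n = 6 each; difference −1.64, adjusted p = 0.0132, exact permutation test). BACE1 rose by 1.37 (log2, adjusted p = 1.74e-10), with 126.0 CPM with SUPT4H1 siRNA and 48.7 CPM with scrambled siRNA. BACE1-AS had 4.16 CPM with SUPT4H1 siRNA and 4.97 CPM with scrambled siRNA (adjusted p = 0.345). OTUD6B rose by 1.21 (log2, adjusted p = 1.57e-06) next to OTUD6B-AS1, which starts 7 bases away and stood at 0.08 (adjusted p = 0.476).

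In other pairs the antisense transcript fell and the sense gene rose. LRP4-AS1 was at 4.91 ± 1.58 CPM with SUPT4H1 siRNA and 8.0 ± 0.76 CPM with scrambled siRNA, and LRP4, a receptor gene of the neuromuscular junction, at 20.7 CPM with SUPT4H1 siRNA and 10.7 CPM with scrambled siRNA (log2 fold change 0.95, adjusted p = 1.16e-05 by edgeR). The difference in log2 ratio was −1.73 for LRP4-AS1, −1.78 for GDNF-AS1, −1.19 for ZSCAN16-AS1 and −0.99 for NR2F1-AS1, each with an adjusted p of 0.0132 in the exact permutation test. CECR5-AS1 fell while CECR5 did not pass the threshold (81.8 CPM with SUPT4H1 siRNA, 85.5 CPM with scrambled siRNA, adjusted p = 0.651 by edgeR), and the difference in its log2 ratio was −1.63.

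In 9 of the 10 higher ratios the antisense transcript rose, and in SERTAD4-AS1 the sense gene fell while the antisense transcript did not pass the threshold. HOXA11-AS to HOXA11 was 0.66 ± 0.22 on the log2 scale with SUPT4H1 siRNA and −0.16 ± 0.24 with scrambled siRNA (SD, n = 6 each; difference 0.82, adjusted p = 0.0132, exact permutation test). More reads of the antisense transcript than of HOXA11 were counted in all 6 SUPT4H1 siRNA libraries (109.8 to 138.3 CPM against 71.4 to 92.3 CPM of HOXA11), and in 3 of 6 scrambled siRNA libraries. DLX6-AS1, which is transcribed beside the homeobox genes DLX5 and DLX6, reached 0.26 ± 0.46 with SUPT4H1 siRNA and −1.03 ± 0.22 with scrambled siRNA (difference 1.29). The differences for ZBTB11-AS1 (1.29), ST20-AS1 (1.07), THAP7-AS1 (1.06) and RTCA-AS1 (1.01) were of similar size. SNAI3-AS1 had the largest (2.43), but SNAI3 averaged 0.386 CPM with SUPT4H1 siRNA and 1.47 CPM with scrambled siRNA.

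**Figure D4:**
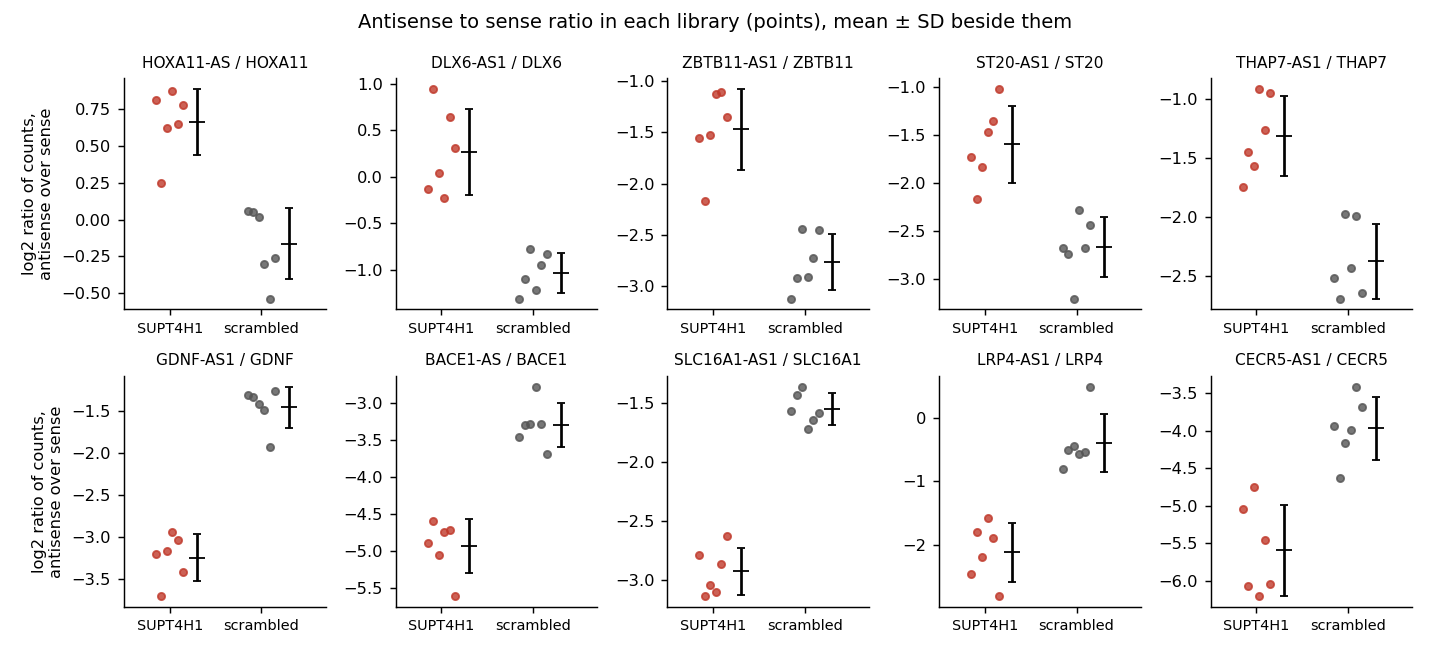
Log2 ratio of counts, antisense over sense gene (y axis, pseudocount 0.5), in each of 6 SUPT4H1 siRNA libraries (red) and 6 scrambled siRNA libraries (grey) for 10 pairs picked to show both directions, with the mean ± SD beside the points. The upper 5 pairs are higher with SUPT4H1 siRNA (HOXA11-AS: 0.66 against −0.16) and the lower 5 are lower (SLC16A1-AS1: −2.93 against −1.55).

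Which strand setting the authors counted with is not given in the sources used here. Reads of a gene and of its antisense partner may therefore not be fully apart in the counts. The members most exposed are the 4 that lie wholly inside exons of an opposite gene. AC092069.1 lies in exons of CALR, the gene of the chaperone calreticulin, and has 0.64% of its counts; both rose (1.07 and 0.70 on the log2 scale). AC107373.2 lies in NEFL with 1.55% of its counts and stood at 0.28 (log2, adjusted p = 0.0494), a call that held under only 6 of 18 alternatives (adjusted p up to 0.148), while NEFL fell by 0.62 (log2, adjusted p = 1.56e-05). AC020978.5 has 21.4% of the counts of NFATC3 and did not pass the threshold (−0.29, adjusted p = 0.335), while NFATC3 rose by 0.88 (log2, adjusted p = 2.61e-06). AC130324.3 and TEFM both did not pass. Of all members, 72 had no exon opposite another exon. Of these 14 rose and 17 fell, where 20% and 20.2% of all rows tested did.

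With each library scaled to the ERCC standards of subgroup B, which had been added to every lysate at the same nominal amount in both mixes, most differences were falls. By this scale 134 members fell (57.5%) and 1 rose, against 59.0% and 0.311% of all rows tested. The median log2 fold change was −0.86 over the members, or 55.3% left, and −0.82 over all rows tested. All 6 SUPT4H1 siRNA lysates received mix 2 and all 6 scrambled siRNA lysates mix 1, so a difference in the amount of standard added cannot be told apart from the siRNA. Each lysate is recorded as 1000000 cells, and fewer cells in a lysate and less RNA per cell cannot be told apart on this scale. The 1 member that rose was AP000692.2 (log2 fold change 1.32, adjusted p = 0.00252). Of the relative rises, AC005034.3 stood at 0.33 on this scale (adjusted p = 0.347) and HOXA11-AS at −0.34 (adjusted p = 0.325), neither of them called. FAM201A fell by 2.18 (log2, adjusted p = 3.17e-08) and NNT-AS1 by 1.33 (log2, adjusted p = 0.000403). The count of falls rests on the standards: it was 117 without SUPT4H1 siRNA replicate 6, 201 without SUPT4H1 siRNA replicate 5, in which the standards took 0.793% of counts against 1.48% to 2.45% in the rest of its group, and 51 with subgroup C alone.

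**Figure D5:**
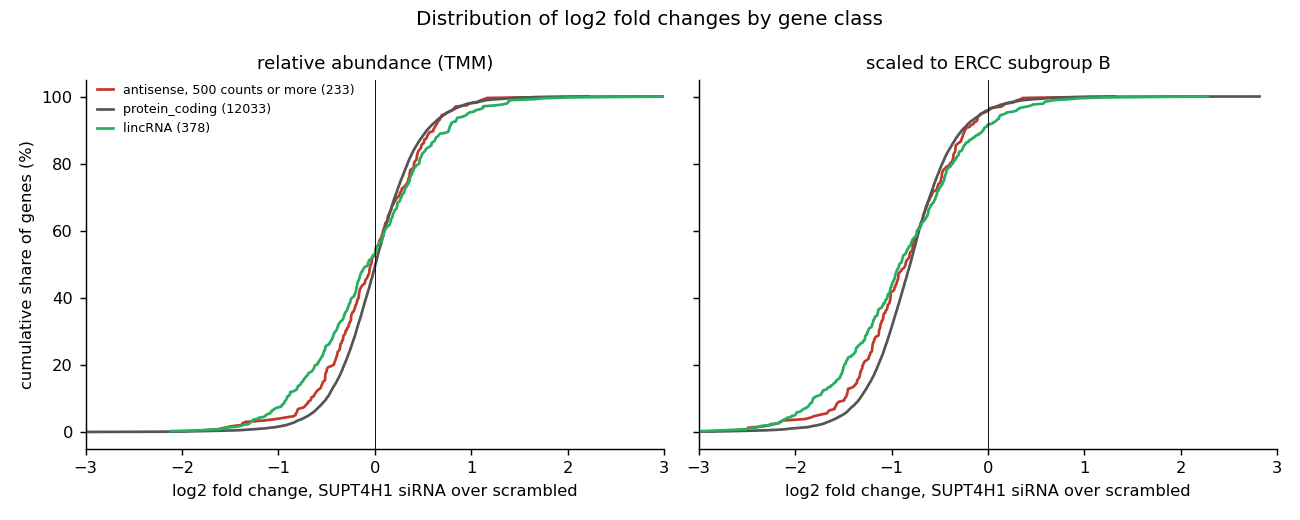
Cumulative share of genes (y axis, percent) by log2 fold change, SUPT4H1 siRNA over scrambled siRNA (x axis), for relative abundance (left) and with scaling to ERCC subgroup B (right), for 233 antisense transcripts, 12033 protein_coding and 378 lincRNA genes. The 3 curves cross near 0 on the left (antisense median −0.04) and near −0.8 on the right (antisense median −0.86).

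Genes that act on antisense and upstream transcripts (the nuclear exosome, its adaptors, XRN2 and PCF11) were set beside these results. Of 24 tested, 6 rose and 4 fell in relative abundance (median log2 fold change 0.03). That was 25% higher and 16.7% lower, near the 20% and 20.2% of all rows tested. PABPN1, a nuclear poly(A)-binding protein, rose by 1.10 ± 0.32 (log2, adjusted p = 0.0183), ZC3H18, an adaptor of the cap-binding complex, by 0.69 ± 0.10 (log2, adjusted p = 2.59e-05) and EXOSC7, a subunit of the exosome core, by 0.55 ± 0.08 (log2, adjusted p = 2.16e-05). EXOSC8, of the same core, fell by 0.70 ± 0.09 (log2, adjusted p = 3.09e-06), with 63.9 CPM with SUPT4H1 siRNA and 104.2 CPM with scrambled siRNA. The other called rises were NCBP1 (0.38), SRRT (0.34) and DIS3 (0.27), as log2 fold changes. The other called falls were EXOSC2 (−0.42), C1D (−0.34) and EXOSC3 (−0.33). The part of these genes in the values above was not tested.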

How the data were processed

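The authors deposited 1 table of raw counts of 3′ end reads per gene. The submitters' processing notes name STAR, FastQC 0.11.5, MultiQC, R 3.4.3 and build GRCh38.p10; which tool, annotation release and strand setting made the counts is not given in the sources used here. Counts of endogenous rows were scaled by TMM and tested with edgeR 4.0.16 (robust quasi-likelihood, filterByExpr) in R 4.3.3, comparing 6 libraries with SUPT4H1 siRNA and 6 with scrambled siRNA, with Benjamini-Hochberg adjustment over 13811 rows and a threshold of 0.05. CPM are TMM-scaled. ERCC standards were put into subgroups from general knowledge of the product; the median log2 differences of subgroups A to D were −2.03, −0.01, 0.59 and 0.99, against nominal values of −2, 0, 0.585 and 1. Ratios had a pseudocount of 0.5. Positions come from GENCODE release 29.

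Members, lists and tests were chosen with earlier results of these data known. Named members are the 10 with the highest total, the 12 largest called rises and falls, a list with described roles, the 3 nearest the limit and partners; the HOX grouping, the 10 pairs plotted, and other ratio and overlap examples were picked after their values were seen. Scripts were tested on simulated data. The edgeR test called 58.2% of planted 1.5-fold changes and 85.1% of planted 2-fold changes, so a gene not called may still differ. The ratio test missed part of the smaller planted differences, and in a single draw all of them. A ratio not called is therefore no sign of no difference. Libraries sharing a replicate number did not deviate together (r between −0.316 and 0.0654). Alternatives were DESeq2 1.42.0, limma-voom (limma 3.58.1), other filters, scalings, member limits and partners, RNA integrity, a replicate block and leaving out each library.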

Additional observations from a re-analysis of the deposited data

Results flagged for a closer look

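A library lay far from the others of its group, by the gap to its nearest neighbour over the range of the group, in 4 of 100 groups examined. Chance alone gives about 5 at this cut, a count that does not weigh which library is flagged or how far it lies. All 4 were in the SUPT4H1 siRNA group, and TUG1, FGD5-AS1 and KCNQ1OT1 in replicate 6, which also stood apart by chi-square. TUG1 was lowest in SUPT4H1 siRNA replicate 6, at 52.5 CPM, against 73.3 to 84.9 CPM in the others. FGD5-AS1 was highest in the same library, at 129.8 CPM, against 54.8 to 67.0 CPM. KCNQ1OT1 was likewise highest there, at 40.4 CPM, against 12.4 to 17.5 CPM. AP000692.2 was highest in SUPT4H1 siRNA replicate 4, at 15.3 CPM, against 4.59 to 7.06 CPM.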

How the results depend on the processing

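Under the 18 settings with a test per gene (DESeq2, limma-voom, scaling, filter, RNA integrity, replicate block and each library left out), 32 of the rises and 37 of the falls were called in every one. Leaving out 1 library gave 40 to 47 rises and 42 to 53 falls in relative abundance, 1 rise and 104 to 201 falls with spike-in scaling, and 10 to 12 higher and 11 to 15 lower antisense to sense ratios. A member limit of 1000 counts left 31 rises and 30 falls, since fewer members enter. ERCC subgroup C alone gave 51 falls; the cause was not tested. Taking the annotated opposite-strand gene as partner gave 20 higher and 28 lower ratios, over 166 members with a partner in place of 81. With the replicate number as a block the counts were 41 rises and 46 falls, and no ratio passed (0 higher, 0 lower), since the smallest p of that paired exact test is 0.0312. KCNQ1OT1 was no longer called with RNA integrity as covariate or without the filter (adjusted p up to 0.0591). HOTAIRM1, never called, changed sign with RNA integrity (0.14) and without 1 library (−0.18 to 0.10). Depth limits members near 10 counts per library.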
